A study of Mus musculus with 16 samples.

Results

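The genes described here are 49 protein-coding genes of DNA replication and S phase, out of 56941 genes (21684 of them protein-coding) in each of a pair of expression tables. They were selected by name as known parts of the replication machinery, the nucleotide supply that feeds it and the regulators that open S phase, and the selection was made with earlier results of these same libraries in view. Which measured values guided that choice is not recorded, so every comparison below is counted as one that may have been used, and the values and counts are a description that carries no test of the list. Each of the 49 was found once in each table and all 49 were tested in both.

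RNA was sequenced in bulk from indirect cocultures that asked how sympathetic nerves and fibroblasts change each other. The nerve libraries came from superior cervical ganglion (SCG) explants of C57BL/6J pups 1 to 4 days old, cultured alone (SCG, n = 3), with NIH 3T3 mouse embryonic fibroblasts (SCG+MEF, n = 3) or with mPSC1 cells (SCG+PSC, n = 4, of which numbers 1 to 3 entered the comparisons). The stellate libraries came from mPSC1, an immortalized murine pancreatic stellate cell line that becomes activated on plastic, cultured alone (PSC, n = 3) or with SCG explants (PSC+SCG, n = 3). In each coculture 10000 cells on an insert shared medium with 8 to 13 explants for about 70 hours without contact. The explants were washed and plated in serum medium with nerve growth factor, the labels name no drug or engineered allele in any group, and the culture partner is what sets the groups apart. An explant is a mixed tissue, holding neurons, satellite glia, Schwann cells, macrophages, vessels and fibroblasts, and both fibroblast populations are cell lines. Defining markers were looked up in both kinds of library. Th, the rate-limiting enzyme of noradrenaline synthesis, ranged from 8840 to 31700 normalized counts and Sox10, a glial transcription factor, from 10600 to 17000 in the nerve libraries, against at most 3.85 and 0.989 in the stellate libraries. Of the fibroblast and stellate cell markers, across tables normalized apart, Pdgfra (9970 to 22000 against 805 to 2050) and Col1a1 (214000 to 340000 against 46900 to 135000) were higher in every stellate library than in any nerve library. Lum (1.06 to 33 against 856 to 4230) and Pdgfrb (12800 to 17100 against 18800 to 27400) were lower in every one, and the ranges of Dcn, Col3a1, Col1a2 and Acta2 overlapped. Reads on genes numbered 31900689 to 41632381 per library among the 14 libraries in which they could be recovered.

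A dividing cell copies its genome once per cycle. In G1 the origin recognition complex, Cdc6 and Cdt1 load the Mcm2 to Mcm7 helicase onto origins, and Mcm10, Cdc45 and the GINS complex switch that helicase on at the start of S phase. Polymerases and primase then build the new strands, held to DNA by the sliding clamp Pcna, while ribonucleotide reductase, thymidylate synthase and thymidine kinase supply nucleotides. Many of these genes are transcribed by E2F factors as cells pass from G1 into S phase. Sympathetic neurons leave the cycle as they mature, whereas glia, fibroblasts, endothelial cells and macrophages of a ganglion can divide.

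The E2F recognition sequence is shown because it is the promoter element for which this gene family is known. The 250 bases before the canonical start of each gene (GRCm39, GENCODE M39) were searched on both strands for TTTCCCGC, TTTCGCGC, TTTGCCGC and TTTGGCGC. Matches lay in 6 of the 49 promoters (12.2%) and in 497 of the 21757 protein-coding promoters searched (2.28%). For comparison, CCAAT was found before 24 of the 49 genes (49%) and 36.5% of all, and TTTGAA before 2 of the 49 (4.08%) and 15.6% of all. Stretches of 80 bases that hold the match nearest to the start are printed 5′ to 3′ on the strand of the gene for 4 of the 6 genes. Matched bases are in capitals, and none of the 4 stretches holds an annotated exon. The stretch of E2f8 holds none either and is not reported here. A match read on the opposite strand appears as its reverse complement, and in Mcm5 matches on both strands overlap.
Mcm4 (chr16:15455299-15455378, minus strand, 114 to 35 bases before the start): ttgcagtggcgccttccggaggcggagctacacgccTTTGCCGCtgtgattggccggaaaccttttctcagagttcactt
Mcm5 (chr8:75835952-75836031, plus strand, 188 to 109 bases before the start): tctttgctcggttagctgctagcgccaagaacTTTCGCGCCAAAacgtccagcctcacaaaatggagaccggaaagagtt
Pola1 (chrX:92675856-92675935, minus strand, 122 to 43 bases before the start): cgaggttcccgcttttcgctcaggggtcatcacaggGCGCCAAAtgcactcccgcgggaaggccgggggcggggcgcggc
E2f7 (chr10:110581066-110581145, plus strand, 240 to 161 bases before the start): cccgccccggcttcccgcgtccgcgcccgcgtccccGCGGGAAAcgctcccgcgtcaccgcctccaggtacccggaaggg
These are descriptions of letters in a window and not of bound sites, and the absence of a match before the other 43 genes concerns that window alone. The 6 genes with a match had log2 fold changes of 0.42 (Mcm6), 0.72 (Mcm4), 0.79 (Pola1), 0.92 (E2f7), 1.11 (Mcm5) and 1.44 (E2f8) in SCG+PSC against SCG, within the range of the genes without one, from 0.07 (Rfc1) to 1.52 (Mcm10).

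Replication genes took a small share of the RNA of ganglia and a larger one in the stellate line. The 49 genes summed to 0.0829%, 0.151% and 0.103% of the normalized counts in SCG 1, 2 and 3, to 0.087%, 0.163% and 0.103% in SCG+MEF, and to 0.141%, 0.204% and 0.148% in SCG+PSC, with 0.151% in SCG+PSC 4. In the stellate line the share was 0.564% to 0.659% alone and 0.554% to 0.616% with ganglia. The mean share in SCG+PSC was thus 1.46 times that in SCG, the mean in SCG+MEF 1.05 times, and the mean in PSC 5.46 times, this last across tables that were normalized apart. In bulk RNA a larger number of dividing cells and more RNA per dividing cell cannot be told apart. Per kilobase of exon, Pcna had the highest level of the 49 in SCG (984 normalized counts per kb), in SCG+PSC (1370) and in PSC (3770), and Orc1 the lowest in SCG (9.99) and SCG+PSC (17.3).

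**Figure D1:**
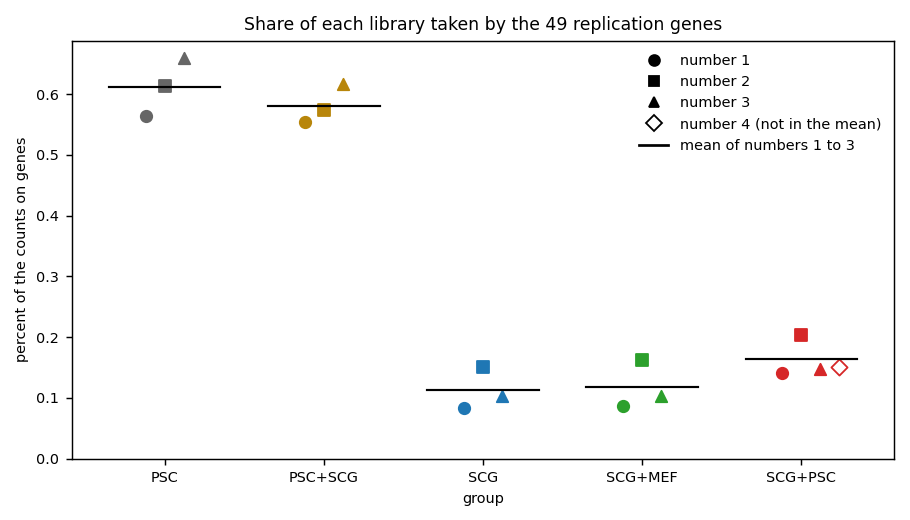
Share of the normalized counts of each library taken by the 49 replication genes, in percent, for the 5 groups, with points for libraries by number and bars for the mean of numbers 1 to 3. SCG+PSC libraries sit between 0.141% and 0.204%, SCG libraries between 0.0829% and 0.151%, and the stellate line above 0.55%.

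In ganglia cultured with stellate cells the mean level of every replication gene was above that in ganglia alone. All 49 genes had a positive log2 fold change in SCG+PSC against SCG, from 0.07 to 1.52 with a median of 0.62, which is 1.54-fold, while the median over all 23491 genes tested was 0.002. In pairs of libraries with the same number, all 49 were higher in SCG+PSC in pairs 1 and 2 and 45 in pair 3. Of all genes tested, 49.4%, 52.9% and 49.3% were higher in these pairs. Median log2 differences of the 49 were 0.79, 0.48 and 0.55. Thus 45 of 49 were higher in all 3 pairs, as were 17.5% of all genes tested, and the exceptions Cdt1, Gins3, Rfc2 and Ccne1 were lower in pair 3, by -0.01, -0.09, -0.05 and -0.03 on the log2 scale. In 14 of the 49 every SCG+PSC library was above every SCG library, which held for 4.24% of all genes tested.

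Libraries of 1 group spread widely, and the spread followed the library number. Number 2 was the highest of its group for 46 of the 49 genes in SCG, 47 in SCG+MEF and 46 in SCG+PSC, and number 1 was the lowest for 42, 41 and 35. Without a term for the number, limma called 0 of the 49 past the threshold (Benjamini-Hochberg adjusted p within 0.05 over the whole table, and a size of 0.5 or more in log2), beside 0.0128% of all genes called higher, and 15 of the 49 and 4.01% of all genes had an unadjusted p under 0.05. Standard errors (SE) below are given first without and then with the block. With the replicate number as a block, 26 of the 49 were past it, all higher, beside 1.21% of all genes called higher. edgeR and DESeq2 with the same block called 26 and 27 of the 49, beside 1.25% and 1.53% of all genes called higher. Without the block both called 0 of the 49, beside 0.0127% and 0.211% of all genes, with 10 and 16 of the 49 and 3.53% and 3.61% of all genes at an unadjusted p under 0.05. The blocked calls rest on few pairs. Without number 1, 5 of the 49 were called, beside 0.206% of all genes called higher, without number 2 it was 24 beside 1.3%, and without number 3 it was 1 beside 0.13%. The median log2 fold change of the 49 was then 0.53, 0.66 and 0.68. A blocked fit of SCG and SCG+PSC alone called 0 of the 49 and 0.0134% of all genes (3 of 22381), with 41 of the 49 and 10.7% of all genes at an unadjusted p under 0.05. Members called with the block are described below as past the blocked threshold, and the genes of each role follow in the order of replication.

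**Figure D2:**
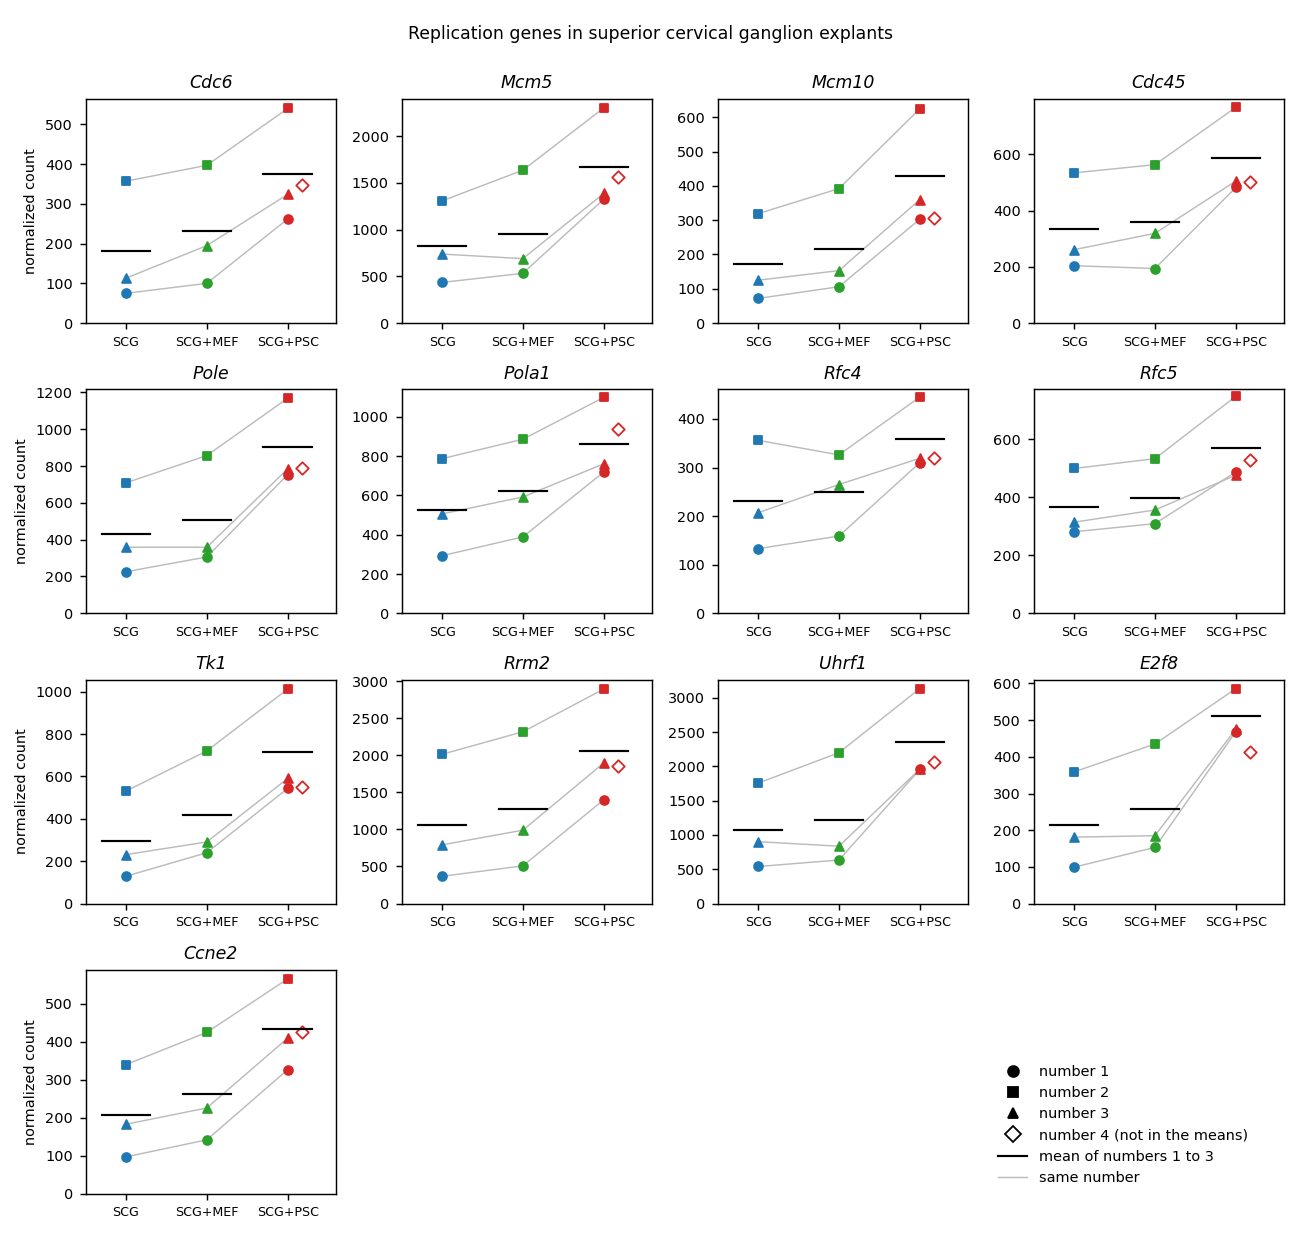
Normalized counts of 13 replication genes in SCG, SCG+MEF and SCG+PSC libraries, chosen as the largest fold changes of each role, with grey lines joining libraries of the same number. In every panel the 3 lines end higher in SCG+PSC than they start in SCG, and number 2 lies on top in each group.

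Origin licensing genes had a median log2 fold change of 0.77 in SCG+PSC against SCG, and 6 of the 10 (Cdc6, Mcm2, Mcm3, Mcm4, Mcm5 and Mcm7) were past the blocked threshold. Cdc6 (chromosome 11, 98798507 to 98814766), the ATPase that helps to load the helicase, had 74.9, 357 and 113 normalized counts in SCG 1 to 3, 100, 397 and 195 in SCG+MEF, 262, 540 and 324 in SCG+PSC, and 348 in SCG+PSC 4. Each SCG+PSC library was above its same-numbered SCG library, although SCG 2 exceeded SCG+PSC 1 and 3, and the difference in log2 was 1.30 (SE 0.60 and 0.21). Mcm5 (chromosome 8, 75836140 to 75856231), a helicase subunit, had 435, 1306 and 738 in SCG, 532, 1635 and 689 in SCG+MEF, 1325, 2300 and 1386 in SCG+PSC, and 1560 in SCG+PSC 4. The SCG and SCG+PSC groups did not overlap, the closest values being 1306 and 1325, and the difference in log2 was 1.11 (SE 0.46 and 0.15). The other helicase subunits had log2 fold changes of 0.42 (Mcm6) to 1.01 (Mcm3), and Mcm2 and Mcm3 also had no overlap. Of the exon bases of Mcm7 (0.52), 3.06% lie in Mir25 and Mir93. Orc1, the largest subunit of the origin recognition complex, had a log2 difference of 0.94 (SE 0.56 and 0.25) at low counts of 23.3 to 103 in SCG and was not past either threshold. The smallest differences of this role were those of Orc6 (0.37) and of Cdt1 (0.23), whose counts were 794, 932 and 706 in SCG and 1107, 1091 and 701 in SCG+PSC.

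Genes of helicase activation divided into some with large and some with small differences, and 3 of the 6 (Mcm10, Cdc45 and Gins2) were past the blocked threshold. Mcm10 (chromosome 2, 4994516 to 5017629), needed to start unwinding, had 71.9, 319 and 125 in SCG, 106, 392 and 153 in SCG+MEF, 303, 625 and 360 in SCG+PSC, and 305 in SCG+PSC 4. Its log2 fold change, 1.52 (SE 0.57 and 0.19), was the largest of the 49, and same-numbered pairs differed by 2.06, 0.97 and 1.52. Cdc45 (chromosome 16, 18599195 to 18631551), a part of the active helicase, had 204, 534 and 261 in SCG, 194, 563 and 319 in SCG+MEF, 482, 767 and 505 in SCG+PSC, and 502 in SCG+PSC 4. The Cdc45 groups overlapped through SCG 2, and the difference in log2 was 0.90 (SE 0.42 and 0.16). Of the GINS complex, which joins Cdc45 on the helicase, Gins2 had 0.77 and Gins1 0.56, whereas Gins3 had 0.27 and Gins4 0.08 (SE 0.14 and 0.09), with Gins4 at 594, 731 and 622 in SCG and 647, 743 and 659 in SCG+PSC.

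Among polymerases and primase the median log2 fold change was 0.44, and 3 of the 9 (Pola1, Pole and Pole2) were past the blocked threshold. Pole (chromosome 5, 110434172 to 110486287), the catalytic subunit of the leading-strand polymerase, had 226, 709 and 359 in SCG, 306, 857 and 359 in SCG+MEF, 754, 1169 and 785 in SCG+PSC, and 787 in SCG+PSC 4. No SCG library reached the lowest SCG+PSC library, and the difference in log2 was 1.19 (SE 0.45 and 0.17). Pola1 (chromosome X, 92348365 to 92675813), the catalytic subunit of the polymerase that extends primers, had 293, 787 and 506 in SCG, 389, 886 and 592 in SCG+MEF, 719, 1099 and 761 in SCG+PSC, and 936 in SCG+PSC 4. SCG 2 lay above SCG+PSC 1 and 3 for Pola1, with a log2 difference of 0.79 (SE 0.37 and 0.14). Pole2, the second subunit of the same polymerase as Pole, had 0.77, with 6.33% of its exon bases lying in exons of Gm49384 on the same strand. The primase subunits Prim1 (0.42) and Prim2 (0.35), Pola2 (0.34) and the lagging-strand polymerase subunits Pold1 (0.44), Pold2 (0.47) and Pold3 (0.18) had smaller differences, and none of these was past the blocked threshold.

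The clamp, its loader, the single-strand binding proteins and the enzymes that join Okazaki fragments had the second smallest median, 0.47, and 3 of the 11 (Rfc5, Fen1 and Lig1) were past the blocked threshold. Rfc4 (chromosome 16, 22932519 to 22946794), a clamp loader subunit, had 133, 356 and 207 in SCG, 159, 326 and 265 in SCG+MEF, 310, 445 and 319 in SCG+PSC, and 319 in SCG+PSC 4, a log2 difference of 0.72 (SE 0.36 and 0.17). Rfc5 (chromosome 5, 117515030 to 117527162), another subunit of that loader, had 281, 499 and 314 in SCG, 309, 533 and 356 in SCG+MEF, 487, 748 and 476 in SCG+PSC, and 528 in SCG+PSC 4, a log2 difference of 0.66 (SE 0.28 and 0.11). SCG 2 was within the SCG+PSC range for both. The large subunit Rfc1 hardly differed, with 2036, 2314 and 2476 in SCG and 2161, 2477 and 2524 in SCG+PSC, a log2 difference of 0.07 (SE 0.13 and 0.07), and Rfc2 and Rfc3 had 0.20 and 0.33. Fen1, the flap endonuclease, and Lig1, the ligase that seals the fragments, had 0.65 and 0.61, both with no overlap between SCG and SCG+PSC. Pcna had 1928, 2906 and 2251 in SCG and 2938, 3840 and 3061 in SCG+PSC, again without overlap, and its log2 fold change of 0.48 lay just under the size threshold of 0.5, as did 0.47 for Rpa2. Rpa1 and Rpa3, which with Rpa2 coat single-stranded DNA, had 0.31 and 0.30.

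Nucleotide supply genes had a median of 0.72, and 4 of the 5 (Rrm1, Rrm2, Tyms and Tk1) were past the blocked threshold. Tk1 (chromosome 11, 117702770 to 117717042), thymidine kinase of the salvage pathway, had 129, 531 and 231 in SCG, 240, 721 and 291 in SCG+MEF, 544, 1013 and 591 in SCG+PSC, and 552 in SCG+PSC 4. The lowest SCG+PSC library was above the highest SCG library, and the difference in log2 was 1.45 (SE 0.52 and 0.18). Rrm2 (chromosome 12, 24757811 to 24764145), the S phase subunit of ribonucleotide reductase, had 367, 2012 and 791 in SCG, 508, 2316 and 989 in SCG+MEF, 1399, 2892 and 1896 in SCG+PSC, and 1854 in SCG+PSC 4. SCG 2 exceeded SCG+PSC 1 and 3, and the spread between numbers was wide, with a log2 difference of 1.24 (SE 0.63 and 0.19). Tyms, thymidylate synthase, had 0.72, Rrm1, the large reductase subunit, 0.55, and Dut, which removes dUTP, 0.30.

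All 3 genes of chromatin assembly and methylation upkeep were past the blocked threshold, with a median of 0.86. Uhrf1 (chromosome 17, 56610275 to 56630489), which brings the maintenance DNA methyltransferase to newly copied DNA, had 540, 1755 and 902 in SCG, 634, 2199 and 836 in SCG+MEF, 1955, 3134 and 1960 in SCG+PSC, and 2061 in SCG+PSC 4. SCG and SCG+PSC did not overlap, and the difference in log2 was 1.27 (SE 0.49 and 0.17). Chaf1a and Chaf1b, subunits of the factor that places histones on new DNA, had 0.86 and 0.82.

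Of the G1/S regulators 4 of the 5 (Ccne2, E2f1, E2f7 and E2f8) were past the blocked threshold, and their median of 0.92 was the highest of the 7 roles. E2f8 (chromosome 7, 48516176 to 48531452), a repressor of E2F targets that is itself made in S phase, had 99.2, 359 and 181 in SCG, 153, 435 and 185 in SCG+MEF, 469, 586 and 476 in SCG+PSC, and 414 in SCG+PSC 4. All 4 SCG+PSC libraries were above the 3 SCG libraries, and the difference in log2 was 1.44 (SE 0.46 and 0.23). Ccne2 (chromosome 4, 11190303 to 11204947), a cyclin E that drives entry into S phase, had 97.2, 340 and 183 in SCG, 142, 425 and 226 in SCG+MEF, 327, 566 and 410 in SCG+PSC, and 425 in SCG+PSC 4, a log2 difference of 1.21 (SE 0.47 and 0.17) with overlap at SCG 2. The other cyclin E gene, Ccne1, had 274, 437 and 474 in SCG and 373, 608 and 464 in SCG+PSC, a log2 difference of 0.30 (SE 0.28 and 0.13). E2f7 had 0.92 and E2f1, an activator of the family, 0.62.

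**Figure D3:**
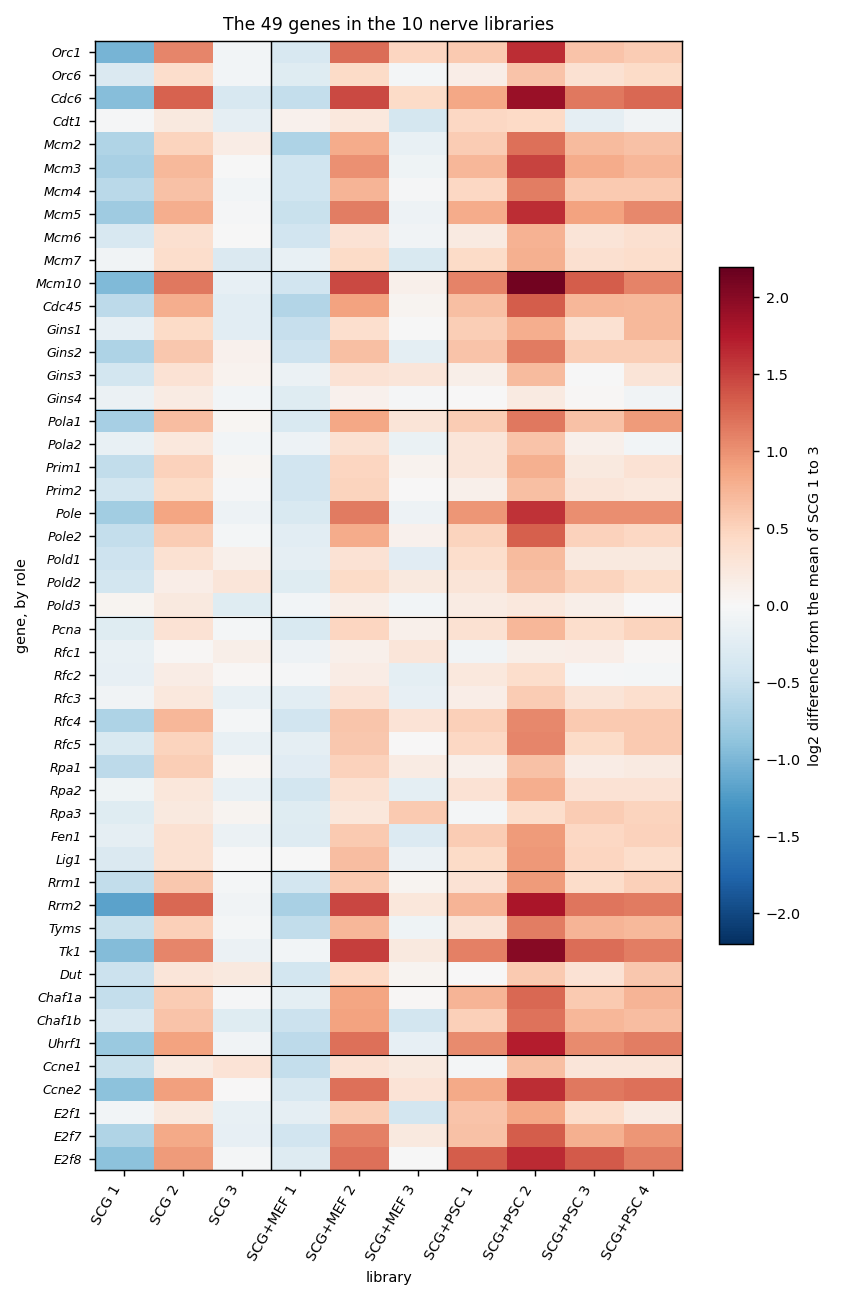
Log2 difference of each of the 49 genes (rows, grouped by role) from the mean of SCG 1 to 3 in each of the 10 nerve libraries (columns), red for higher and blue for lower. Number 2 is the reddest column of each group for most genes, and Rfc1, Gins4 and Pold3 stay near white throughout.

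SCG+PSC 4, which has no same-numbered partner and entered no comparison above, was above the SCG mean for 44 of the 49 genes and above every SCG library for 25. Over all genes tested these shares were 46.0% and 19.2%. Its median log2 difference from the SCG mean was 0.53 for the 49 genes and 0.004 for all genes tested.

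With 3T3 fibroblasts in place of stellate cells, the mean levels of these genes in ganglia lay closer to those in ganglia alone. The median log2 fold change of the 49 in SCG+MEF against SCG was 0.09, with 36 positive, and the range was -0.09 (Rpa2) to 0.56 (Tk1, SE 0.52 and 0.18). Past the threshold were 0 of the 49 both without and with the block, beside 0.0128% and 0.115% of all genes called higher. An unadjusted limma p under 0.05 was seen for 0 and 2 of the 49, beside 3.0% and 7.54% of all genes. edgeR and DESeq2 with the block also called 0, beside 0.11% and 0.296% of all genes. Each had 1 gene of the 49 at an unadjusted p under 0.05, beside 7.01% and 4.86% of all genes. In the same-numbered pairs 32, 39 and 28 of the 49 were higher in SCG+MEF, beside 53.3%, 51.6% and 48.5% of all genes tested. Of the 49, 16 were higher in all 3 pairs, where 15.2% of all genes tested were. SCG+MEF lay wholly above SCG for 0 of the 49, which held for 2.99% of all genes tested. The 16 included Cdc6, Mcm10, Pola1, Rrm2, Tk1, Ccne2, E2f7 and E2f8, with log2 fold changes of 0.45, 0.38, 0.27, 0.33, 0.56, 0.39, 0.30 and 0.31, and Mcm6 was lower in all 3 pairs, with -0.06. The sign of the median depended on single libraries: it was -0.15 without SCG+MEF 2 and 0.30 without SCG+MEF 1.

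The direct comparison of both cocultures, which asks whether the partner cell matters, gave a median log2 fold change of 0.54 in SCG+PSC against SCG+MEF. Of the 49 genes, 48 were positive, Rfc1 being -0.02, and the largest were 1.13 for Mcm10 and E2f8 and 1.12 for Uhrf1. All 49 were higher in SCG+PSC in pairs 1 and 2 and 45 in pair 3, beside 48.1%, 48.9% and 49.3% of all genes tested. In all 3 pairs 45 of the 49 were higher, beside 15.6% of all genes tested. Groups did not overlap for 2 of the 49 (Pold3 and E2f8), beside 3.9% of all genes tested. With limma, 6 of the 49 had an unadjusted p under 0.05 without the block and 42 with it, beside 3.21% and 11.7% of all genes. Without the block 0 of the 49 and 0.0% of all genes were called higher. With it, 18 of the 49 and 0.66% of all genes were called higher. The 18 were Mcm2, Mcm3, Mcm4, Mcm5, Mcm7, Mcm10, Cdc45, Pole, Rfc5, Rpa2, Fen1, Tyms, Tk1, Chaf1a, Chaf1b, Uhrf1, E2f1 and E2f8. Without number 2 the blocked count was 20, beside 0.977% of all genes called higher. Without number 1 or number 3 it was 0, beside 0.00897% (2 of 22289) and 0.0134% (3 of 22373) of all genes, while the median log2 fold change of the 49 was 0.43, 0.61 and 0.58 without numbers 1, 2 and 3. SCG+PSC is shared with the comparison against SCG, so both comparisons rest in part on the same libraries.

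**Figure D4:**
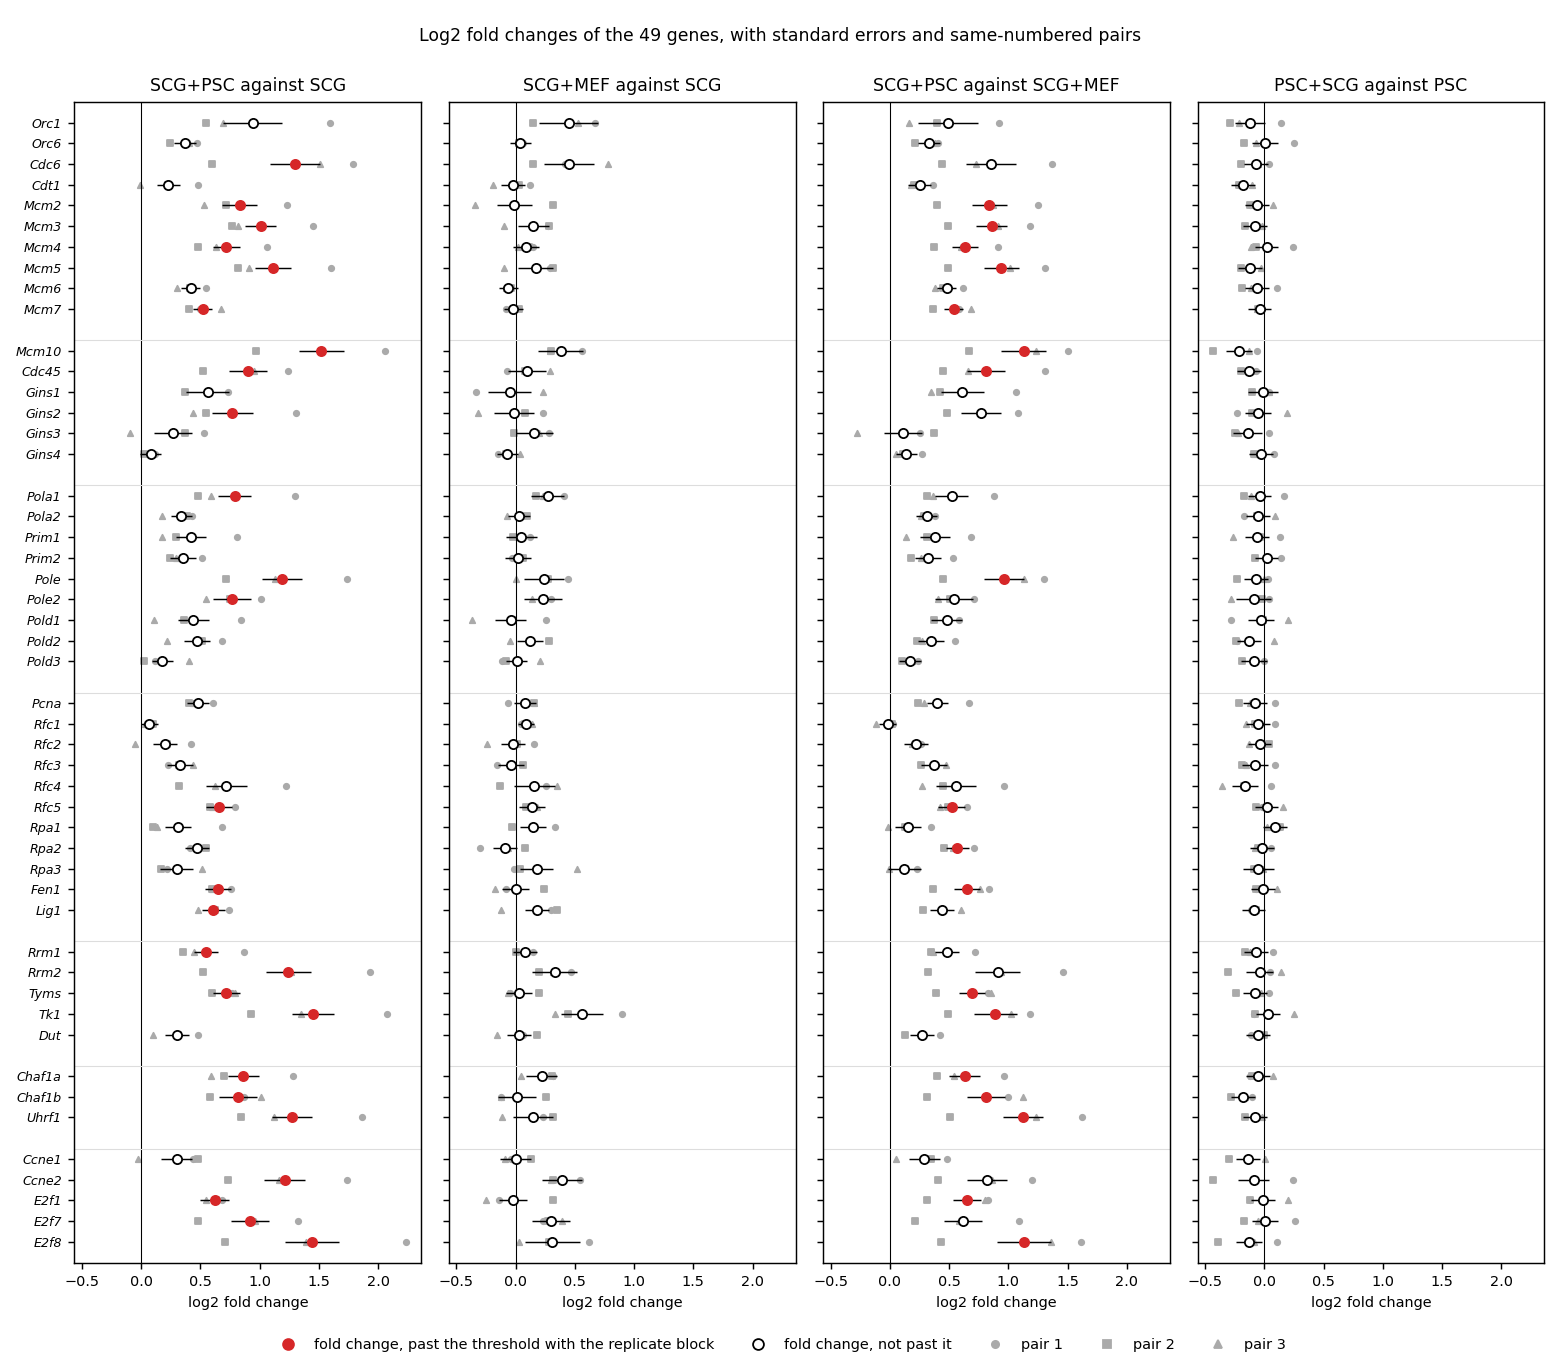
Log2 fold changes of the 49 genes, by role from top to bottom, in 4 comparisons, with standard errors from the fit with the replicate block and grey symbols for the 3 same-numbered pairs. Filled points are past the blocked threshold, 26 in the first panel, 0 in the second, 18 in the third and 0 in the fourth.

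Other genes of the pathway were counted from further lists. Beside their counts in SCG+PSC against SCG stand 0.0128% of all genes called higher without the block and 1.21% with it. How the calls of these lists change when a number is left out is not given. Of 32 other replication genes, 31 had a positive log2 fold change in SCG+PSC against SCG (median 0.34), 0 were past the threshold without the block and 8 with it. These were Clspn (1.40), an adaptor of the replication checkpoint, Ticrr (1.38) and Topbp1 (0.52), which act in origin firing, Top2a (1.24), which untangles DNA, Chtf18 (0.96), of an alternative clamp loader, Dna2 (0.76), a nuclease and helicase, Mcm8 (0.71) and the kinase Cdc7 (0.59). Among 27 other S phase and G1/S genes 24 were positive (median 0.29), and again 0 and 8 were past the threshold. Among the 8 were Pclaf (1.49), a partner of the clamp, Ccna2 (1.19), the S phase cyclin, Dtl (1.11), Hells (0.91), the histone chaperone Asf1b (0.90), Rbl1 (0.79) and Usp1 (0.60). Of 15 mitosis genes, all had a higher mean in SCG+PSC (median 1.12), 0 were past the threshold without the block and 15 with it, from 0.86 (Bub1b) to 1.34 (Mki67, a marker of cycling cells). The summed share of these 15 was 0.0155%, 0.0681% and 0.0266% in SCG and 0.0517%, 0.0935% and 0.0601% in SCG+PSC. Of the others, the log2 fold changes were 1.29 for Cenpf and Aurkb, 1.26 for Bub1, 1.22 for Plk1 and Ccnb2, 1.13 for Birc5, 1.12 for Kif11, 1.07 for Cdk1, 1.06 for Cenpe, 1.03 for Ccnb1, 0.97 for Aurka, 0.96 for Cdc20 and 0.95 for Tpx2. Against SCG+MEF the blocked counts were 5, 3 and 10 of these lists, beside 0.66% of all genes called higher. In SCG+MEF against SCG and in PSC+SCG against PSC they were 0, 0 and 0, beside 0.115% and 0.315% of all genes.

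Markers of the cell types in a ganglion were set beside these counts. In SCG+PSC against SCG with the block, 0 of 10 sympathetic neuron markers, 0 of 8 satellite glia and Schwann cell markers and 0 of 6 endothelial markers were past the threshold, as were 1 of 8 macrophage markers (Mrc1, 1.15) and 1 of 8 fibroblast markers (Lum, 0.65). The median log2 fold change was 0.03 for the neuron list (6 positive), 0.02 for the glial list (4 positive), -0.08 for the macrophage list (2 positive), 0.35 for the fibroblast list (7 positive) and 0.62 for the endothelial list (4 positive), the last equal to the median of the 49. Of the endothelial markers, Pecam1 had 1.34, Tek 0.98, Kdr 0.76, Cdh5 0.49 and Emcn -0.48, and Flt1 was also negative. The groups overlapped for Pecam1 (86.1 to 338 normalized counts in SCG and 299 to 628 in SCG+PSC) and Cdh5 (863 to 1140 and 1110 to 1580). They also overlapped for Flt1 (408 to 953 and 510 to 759). Kdr was at 115 to 225 normalized counts in SCG and 263 to 307 in the 4 SCG+PSC libraries and Tek at 20.5 to 52.3 and 56.6 to 105, both without overlap, while Emcn was lower without overlap, at 2260 to 3080 and 1510 to 2150. The summed neuron markers ranged from 63235 to 164600 normalized counts in SCG and from 78313 to 140307 in the 4 SCG+PSC libraries, and the glial ones from 59087 to 77603 and from 62100 to 76419. Sums were 5717 to 9033 and 6350 to 7831 for macrophage markers, 4371 to 5110 and 4460 to 4859 for endothelial markers, and 211435 to 415901 and 292225 to 411065 for fibroblast markers. The ranges of the sums overlap for every list, and no listed marker was at 0 in a nerve group. In SCG+PSC against SCG+MEF with the block, all 10 neuron markers were negative (median -0.21, from -0.43 for Th to -0.04 for Hand2) and none was past the threshold. The endothelial median was 0.39, with 5 of 6 positive from -0.13 (Emcn) to 0.62 (Pecam1) and none past the threshold. Medians were 0.02 for glial, -0.09 for macrophage and -0.03 for fibroblast markers, where Fabp7 (0.56) was called higher and Lum (-0.64) lower. In SCG+MEF against SCG with the block, Lum (1.29) and Dcn (0.74) were called higher and Fabp7 (-0.5) lower. No other listed marker was called there, beside 0.115% of all genes called higher. The SCG+MEF sums were 98107 to 160182 for neuron, 68045 to 80932 for glial, 6090 to 8778 for macrophage, 3854 to 4908 for endothelial and 292745 to 426213 for fibroblast markers. The part of cell composition in the replication gene differences was not tested in either comparison. RNA of the stellate line in the nerve libraries was looked for with genes that the ganglia lack. The 4 genes with at least 300 normalized counts in every stellate library and at most 1 in every SCG and SCG+MEF library (Sprr2g, Klra4, Irx1 and Nkx2-3, picked after their values were seen) summed to at most 1.92 in a SCG+PSC library, 0.0431% of their sum in PSC. The rise of the 49 genes from the SCG to the SCG+PSC mean was 1.39% (Gins4) to 37.3% (Rrm2) of their PSC level, with a median of 7.5%, across tables normalized apart. The part of stellate RNA in the replication gene differences was not tested.

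In the stellate line, the mean levels of most of these genes were slightly lower after coculture with ganglia, within the spread between libraries. The median log2 fold change in PSC+SCG against PSC was -0.06, the range -0.21 (Mcm10) to 0.09 (Rpa1), and 42 of the 49 were negative, while the median over all 21273 genes tested was -0.008. Past the threshold were 0 of the 49 with limma in either fit. Of all genes, 0.0% (no block) and 0.315% (block) were called higher and 0.0% and 0.146% lower. Unadjusted limma p values under 0.05 were seen for 0 of the 49 in either fit, beside 1.92% and 8.37% of all genes. The median was 0.01 when PSC 3 was left out and -0.15 without PSC+SCG 3. Of the 49, 25, 3 and 16 were higher in PSC+SCG in pairs 1, 2 and 3, beside 48.3%, 47.7% and 49.4% of all genes tested. Rpa1 alone was higher in all 3 pairs, as were 12.3% of all genes tested, and 11 of the 49 were lower in all 3, as were 14.3%. These 11 were Cdt1, Mcm3, Mcm5, Mcm7, Mcm10, Cdc45, Pold3, Rpa3, Lig1, Chaf1b and Uhrf1. For 0 of the 49 was PSC+SCG wholly above PSC (2.68% of all genes tested), and for Pold3 alone it was wholly below (2.91%).

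**Figure D5:**
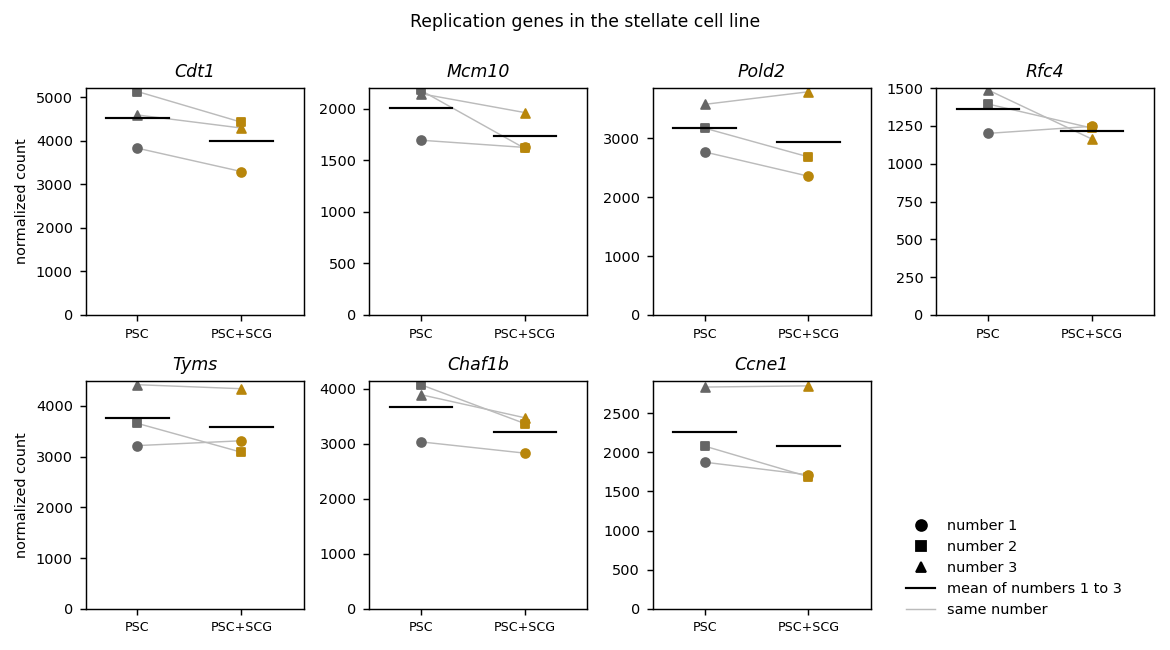
Normalized counts of the 7 replication genes with the largest difference of their role in the stellate line, alone (PSC) and with ganglia (PSC+SCG), with axes from 0 and grey lines joining libraries of the same number. The groups overlap in every panel, with log2 fold changes of -0.21 to -0.08.

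The largest differences of each role in the stellate line were small next to the level of the gene. Mcm10 had 1695, 2178 and 2146 normalized counts in PSC 1 to 3 and 1625, 1615 and 1963 in PSC+SCG, a log2 difference of -0.21 (SE 0.15 and 0.11). Cdt1, the licensing factor, had 3829, 5130 and 4592 in PSC and 3293, 4426 and 4292 in PSC+SCG, a log2 difference of -0.18 (SE 0.16 and 0.10). Both were lower in PSC+SCG in each pair, yet their groups overlapped. Chaf1b had 3035, 4074 and 3893 in PSC and 2830, 3367 and 3473 in PSC+SCG (-0.18, SE 0.15 and 0.10), and Rfc4 had 1201, 1395 and 1488 in PSC and 1248, 1236 and 1163 in PSC+SCG (-0.16, SE 0.13 and 0.11). Ccne1 had 1875, 2081 and 2836 in PSC and 1713, 1689 and 2851 in PSC+SCG (-0.14, SE 0.23 and 0.10), and Pold2 had 2766, 3170 and 3573 in PSC and 2354, 2681 and 3787 in PSC+SCG (-0.13, SE 0.19 and 0.10). Tyms had 3219, 3657 and 4420 in PSC and 3314, 3088 and 4341 in PSC+SCG (-0.08, SE 0.17 and 0.10). Number 3 was the highest library for 40 of the 49 genes in PSC and for 36 in PSC+SCG.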

How the data were processed

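Per the labels and the study's methods, the authors sequenced stranded mRNA libraries, aligned reads with STAR 2.7.10b to GRCm39, counted them by strand on GENCODE M33 and divided each library by its DESeq2 1.38.3 size factor (R 4.2.2), the stellate and nerve libraries apart. The deposited values are a signal, normalized counts. Each library's values were whole multiples of 1 step (100% within 0.01), and reads were recovered for 14 of 16 libraries. For PSC+SCG 1 and SCG+PSC 4, whose step lies near 1, they were not, so count tests cover the nerve table only.

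The 49 genes and all gene lists were chosen with earlier results of these data known. Log2(normalized count + 1) of genes summing to at least 10 (21273 stellate, 23491 nerve) was fitted over each whole table with limma 3.58.1 in R 4.3.3, the 9 numbered nerve libraries in 1 model. Genes with a Benjamini-Hochberg adjusted p within 0.05 whose log2 fold change was 0.5 or more in size were called. The study's experimental batches are tied to no library here, and the main test therefore leaves batch out. The replicate number, from the titles, was added as a block. Deviations from group means correlated in every same-numbered pair (r = 0.173 to 0.514 in nerve and 0.303 to 0.548 in stellate libraries). Different-numbered pairs had r = -0.371 to 0.0525 and -0.461 to 0.19. Deviations cancel within a group, so positive values in some pairs go with negative ones in others. The numbers were taken to pair the libraries, although the labels do not say what a number shares. No label says that libraries of a group came from separate litters or cultures, so errors measure the spread between libraries. edgeR 4.0.16 and DESeq2 1.42.0 on recovered reads, other scalings, pseudocounts and filters and leaving out libraries were alternatives. Scripts were tested on simulated data.

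Values in every library are given for the 2 members of each role (1 where a role has at most 3) with the largest log2 fold change in SCG+PSC against SCG, and for the 1 with the largest in PSC+SCG against PSC. Most other genes of the lists that passed the threshold are named, and a few items are not reported here. Gene positions, exon lengths and promoters came from GENCODE M39 on GRCm39. Errors are standard errors of the fits, and no separate counting interval is given.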

Additional observations from a re-analysis of the deposited data

Results flagged for a closer look

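In 16 of the 49 genes SCG+PSC 2 stood apart from the other SCG+PSC libraries, its gap to the nearest of them filling more of the range of the 4 libraries than the limit of Dixon's test for 4 values. The gap as a share of the range was Orc1 (0.96), Mcm3 (0.915), Mcm4 (0.856), Mcm7 (0.869), Cdc45 (0.917), Gins2 (0.88), Prim1 (0.846), Pole (0.921), Pole2 (0.959), Rfc4 (0.929), Rpa1 (0.867), Rpa2 (0.98), Fen1 (0.831), Lig1 (0.883), Tk1 (0.9) and Uhrf1 (0.91). SCG+PSC 2 was the highest library in each of these. Chance alone passes this limit in about 1 of 20 groups, and the 49 genes share their libraries. The share of all genes that pass it was not computed, so the 16 cannot be called particular to replication genes. Number 2 was also the highest library for 46 of the 49 genes in SCG and 47 in SCG+MEF, groups of 3 to which the limit was not applied.

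SCG+PSC 4 was above every SCG library in 25 of the 49 genes, within the range of SCG+PSC 1 to 3 in 36, below it in 12 and above it in 1. It entered only an alternative fit of all 10 nerve libraries, without the block. That fit gave a median log2 fold change of 0.6 in SCG+PSC against SCG. It called 0 of the 49, beside 8 of 23779 genes called higher.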

How the results depend on the processing

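The replicate block, which pairs libraries by number, changed the calls most. It moved the genes past the threshold in SCG+PSC against SCG from 0 to 26, and in SCG+PSC against SCG+MEF from 0 to 18. The share of all genes called higher moved from 0.0128% to 1.21% and from 0.0% to 0.66%. Together with the block, the counts in these 2 comparisons were 27 and 23 with DESeq2 and 26 and 21 with edgeR. Scaled by depth only, edgeR gave 25 and 22. Over all 23680 genes, 363 and 277 were called higher with DESeq2, 297 and 179 with edgeR, and 278 and 181 by depth only. The counts were 24 and 16 with median centring, 24 and 16 with a pseudocount of 8, and 24 and 17 with quantile normalization. Over all 23491 genes, 234 and 127, 264 and 136, and 232 and 133 were called higher in these settings. A blocked fit of only the 2 groups compared gave 0 and 8, beside 3 of 22381 and 86 of 22299 genes called higher. Blocked fits without number 1, 2 or 3 gave 5, 24 and 1 against SCG, and 0, 20 and 0 against SCG+MEF. Of all genes, 0.206%, 1.3% and 0.13% were then called higher against SCG, and 0.00897%, 0.977% and 0.0134% against SCG+MEF. The pairing left the counts in SCG+MEF against SCG and in PSC+SCG against PSC at 0. Without the block 0 of the 49 were past the threshold in each of the 4 comparisons under every setting run there, fits without 1 library included. Leaving out 1 library moved the median log2 fold change over 0.43 to 0.82 in SCG+PSC against SCG, 0.34 to 0.78 in SCG+PSC against SCG+MEF, -0.15 to 0.30 in SCG+MEF against SCG and -0.15 to 0.01 in PSC+SCG against PSC. Of the genes higher in all pairs, 1 in PSC+SCG became 0 with quantile normalization. When a number was left out, that 1 became 1 to 5, and 16 in SCG+MEF became 20 to 26. Leaving out a number asks for fewer pairs, so these counts could only stay or rise, and the matching shares of all genes are not given. In SCG+MEF against SCG the sign of 12 named genes turned when SCG 1 or SCG+MEF 2 was left out (for Cdc45 also SCG 3), and over all libraries left out the values ran from -0.05 to 1.10 for Cdc6, -0.31 to 0.57 for Mcm5, -0.15 to 0.96 for Mcm10, -0.29 to 0.50 for Cdc45, -0.22 to 0.68 for Pole, -0.10 to 0.61 for Pola1, -0.18 to 0.53 for Rfc4, -0.09 to 0.39 for Rfc5, -0.26 to 0.96 for Rrm2, -0.38 to 0.59 for Uhrf1, -0.14 to 0.78 for E2f8 and -0.06 to 0.83 for Ccne2. In the stellate line they ran from -0.39 to 0.03 for Ccne1, -0.33 to 0.02 for Pold2 and -0.22 to 0.05 for Tyms, which was 0.01 in the blocked fit without number 2. The cause was not tested. None of the 13 genes given with every nerve library changed sign in SCG+PSC against SCG or against SCG+MEF under any alternative run. Over the 49, positive genes numbered 48 without SCG 1 (lowest -0.01) and 49 otherwise against SCG. Against SCG+MEF they numbered 45 (without SCG+MEF 1, lowest -0.12) to 49. Rfc1 was positive there without SCG+MEF 3, without SCG+PSC 1 and in the blocked fit without number 3. Chosen after seeing the data were the other scalings, the pseudocount, DESeq2, the depth-only edgeR fit, the fits of 2 groups and the leaving out of numbers, all with the block, and the alternatives for the pairs. Counting error is largest for Orc1, at 23.3 normalized counts in SCG 1.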
